A study of Mus musculus with 6 samples.

Results

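The late germ cell genes measured here are 10 genes that male germ cells express late in their development into sperm. They were chosen by gene symbol, and all 10 of the 10 were found among the 21829 genes of the table: the protamines Prm1 and Prm2, the transition proteins Tnp1 and Tnp2, the tail and midpiece genes Odf1, Akap4 and Smcp, and the glycolytic enzymes Gapdhs, Ldhc and Pgk2. The tissue was not testis. It was epididymal white adipose tissue, a visceral fat depot attached to the epididymis, sequenced as bulk RNA in 6 libraries. Of these, 3 came from wild-type mice (WT) and 3 from mice labelled ZFP251 KO, all male C57BL/6J animals aged 20 weeks on a normal diet, and the series' design text calls the wild-type mice littermates. The labels give no allele for the knockout, nor do they state that each library is its own animal. The p-values thus reflect library-to-library spread alone, part of which may be technical. Foxj1, the transcription factor that switches on motile cilia, was measured beside these genes as a marker of ciliated cells.

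In the spermatid, transition proteins displace histones from the DNA, and protamines then take their place and pack the sperm nucleus. Sperm also carry their own glycolytic enzymes and a tail with dense fibres and a fibrous sheath, built from proteins that few other cells make. These genes are therefore read as marks of late germ cells, and they are not known as genes of the fat cell.

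The 10 genes were present in some of these fat libraries and nearly absent from others, and the split ran across both genotypes. All 10 members were highest in WT 1 and KO 2, with KO 1 next, and all were at or below 0.312 FPKM in WT 2 and WT 3. Summed over the 10 genes, the level was 151 FPKM in WT 1, 1.07 in WT 2 and 0.533 in WT 3, against 16.4 in KO 1, 121 in KO 2 and 4.15 in KO 3 (FPKM, fragments scaled for transcript length and library size). Even in WT 1 that sum was 0.0319% of the FPKM of all genes. In bulk tissue, fewer cells of a type and less RNA per cell cannot be told apart.

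A few facts of the libraries bear on these values. The FPKM of all genes summed to between 426966 and 637902, with the highest sum in WT 3. The fat cell gene Adipoq, which encodes adiponectin, stood between 2097 and 5889 FPKM in all 6 libraries. Zfp251, the targeted gene, had higher RNA levels under the KO label. It had 6.48, 5.86 and 6.48 FPKM in turn in the KO libraries, with 3.73, 3.56 and 2.95 FPKM in the WT ones (limma adjusted p = 0.223). Whether the protein is lost was not tested, so every direction below is that of the libraries labelled KO, called KO libraries for short. Values given in turn follow the order of replicates 1 to 3. WT 1 stood apart from the other WT libraries by its epithelial genes, such as the adhesion molecule Epcam, at 14.2 FPKM against 0.199 in WT 2 and 0.191 in WT 3. A value of exactly 0 may be a failed estimate, so such genes are described as listed at 0.

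Prm1, Prm2 and Tnp2 lie together with Prm3 in a stretch of 17904 bases on chromosome 16 (GRCm38, chr16:10787936-10805839), and Tnp1 lies on chromosome 1. The cyclic AMP response element (CRE) is a short DNA motif bound by CREM, an activator of many spermatid genes. Of the 10 members, 9 had promoters in the RefSeq table (GRCm38.p6), with 12 promoters in all. The palindrome TGACGTCA was found in 0 of the 12 in the 250 bases before the start, and in 1.55% of all 32851 promoters. The looser TGACNTCA, which includes the palindrome, was found on either strand before Prm1, Tnp1, Akap4 and Gapdhs, that is in 5 of the 12 promoters, and in 7.49% of all promoters. The TATA motif TATAAA, also searched on both strands, was found before Prm2, on the opposite strand as TTTATA, and in 12.4% of all promoters. A match is a description of the letters and not a bound site. The 110 bases before the start of the nuclear packing genes and of Gapdhs are shown 5′ to 3′ as examples, with the motif matches in capitals. They lie on the minus strand at chr16:10796824-10796933 (Prm1), chr16:10792106-10792215 (Prm2), chr1:73015900-73016009 (Tnp1), chr16:10788656-10788765 (Tnp2) and chr7:30743682-30743791 (Gapdhs).
Prm1: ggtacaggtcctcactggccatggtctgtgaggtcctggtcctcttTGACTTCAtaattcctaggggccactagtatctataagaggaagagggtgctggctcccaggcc
Prm2: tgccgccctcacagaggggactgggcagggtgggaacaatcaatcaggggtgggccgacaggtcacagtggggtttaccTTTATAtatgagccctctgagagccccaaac
Tnp1: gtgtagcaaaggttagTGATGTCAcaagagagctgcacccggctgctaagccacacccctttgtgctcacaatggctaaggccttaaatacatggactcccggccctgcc
Tnp2: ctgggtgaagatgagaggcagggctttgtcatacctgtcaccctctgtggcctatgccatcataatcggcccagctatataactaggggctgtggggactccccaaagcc
Gapdhs: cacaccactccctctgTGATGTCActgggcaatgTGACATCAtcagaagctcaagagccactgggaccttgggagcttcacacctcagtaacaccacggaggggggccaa

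Counted backwards from the first transcribed base, the match before Prm1 spans -64 to -57 and that before Tnp1 spans -94 to -87. Before Gapdhs there were 2 matches on opposite strands, from -94 to -87 and from -76 to -69. Tnp2 had no match to these letters in its window.

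The protamines were the most abundant of the 10 genes. Prm1 (ENSMUSG00000022501, 2 exons and 469 nt) had 39.2 FPKM in WT 1, 0.312 in WT 2 and 0.195 in WT 3, and 3.40, 33.3 and 1.30 FPKM in turn in the KO libraries. WT 1 and KO 2 were high, and the groups overlapped. Prm2 (ENSMUSG00000038015, 2 exons and 621 nt) had 38.1, 0.297 and 0.097 FPKM in turn in the WT libraries and 4.96, 31.0 and 1.55 FPKM in the KO ones. The order of the 6 libraries was that of Prm1. The group means of Prm1 were 13.2 ± 22.5 FPKM in WT and 12.7 ± 17.9 FPKM in the libraries labelled KO (SD, n = 3 each), so the spread within each group exceeded its mean. An exact permutation test over libraries, two-sided, gave p = 1.0 for both protamines, and 3 libraries against 3 cannot go below 0.1.

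The transition proteins followed. Tnp1 (ENSMUSG00000026182, chr1:73015074-73015909) had 22.7, 0.233 and 0.163 FPKM in turn in the WT libraries and 2.73, 19.6 and 0.405 FPKM in the KO ones. Tnp2 (ENSMUSG00000043050, chr16:10787936-10788660) had 24.7 FPKM in WT 1 and was listed at 0 in WT 2 and WT 3, and had 1.15, 13.0 and 0.170 FPKM in turn in the KO libraries. Both were again highest in WT 1 and KO 2, and WT and KO values overlapped. Tnp2 differed most between the top libraries: its level in KO 2 was 52.8% of that in WT 1, where the other 9 members lay between 78.6% and 106%. Prm1, Tnp1 and Gapdhs each overlap antisense genes in the annotation. The kit was stranded, but the sources used here do not say whether strand was used in counting.

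**Figure D1:**
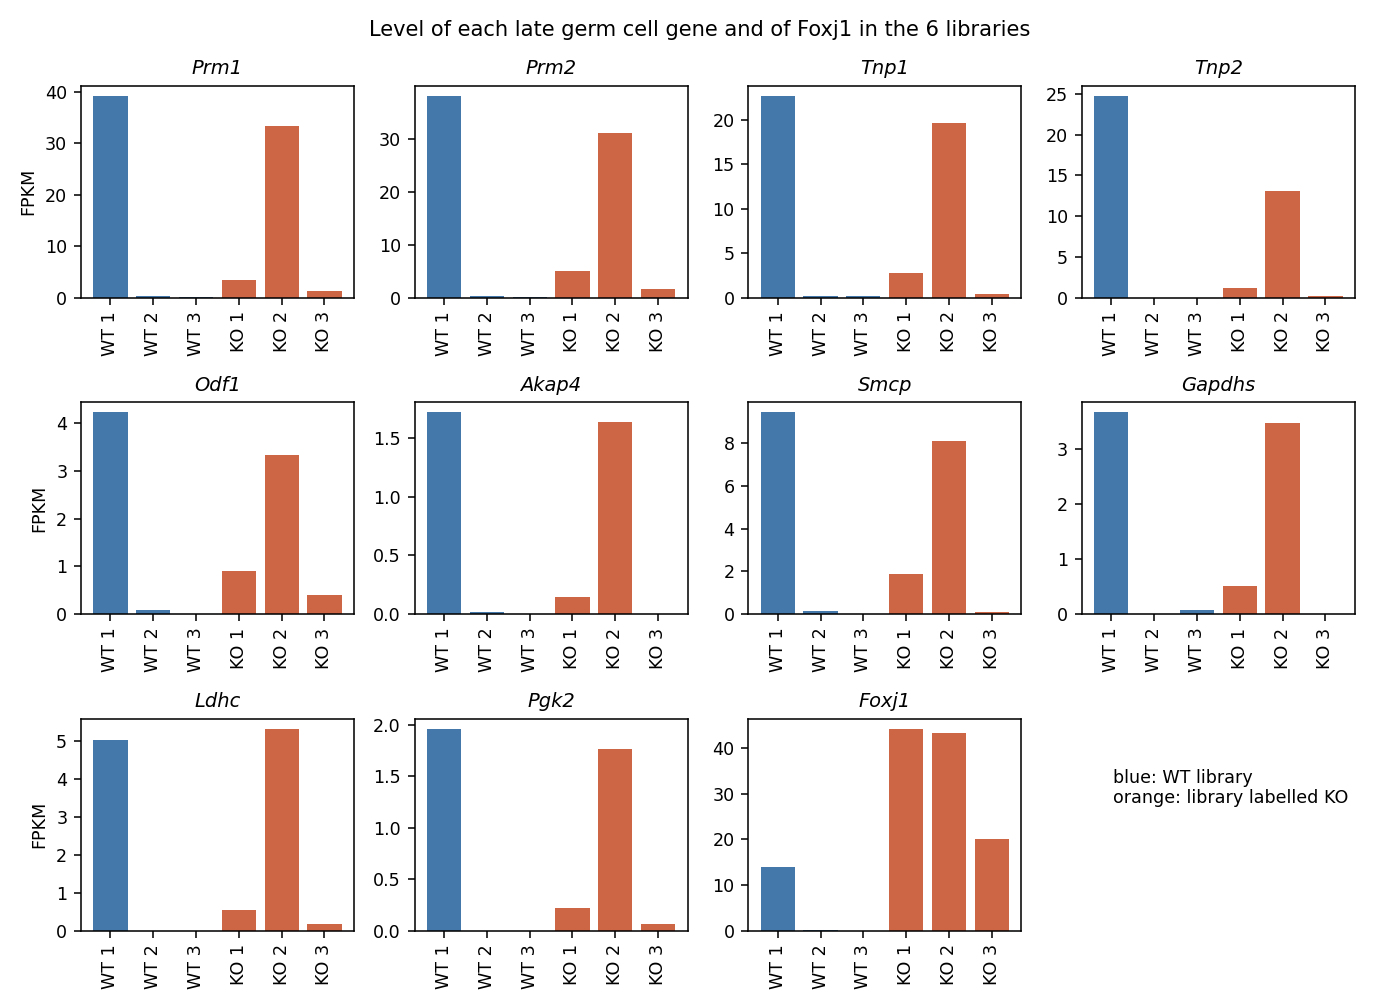
Bars give the FPKM of each gene (vertical axis, a separate linear scale from 0 per gene) in the 3 WT libraries (blue) and the 3 libraries labelled KO (orange). The 10 germ cell genes peak in WT 1 and KO 2, while Foxj1 has 44.2, 43.2 and 20.0 FPKM in turn in the KO libraries and 13.9 FPKM in WT 1.

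Genes of the tail and midpiece had lower levels and the same leading libraries. Odf1 (chr15:38219203-38226735), of the outer dense fibres, had 4.23 and 0.080 FPKM in WT 1 and WT 2 with WT 3 listed at 0, and 0.912, 3.33 and 0.393 FPKM in turn in the KO libraries. Smcp (chr3:92583867-92588997), of the mitochondrial sheath of the midpiece, had 9.45, 0.134 and a listed 0 FPKM in turn in the WT libraries and 1.87, 8.09 and 0.085 FPKM in the KO ones. Akap4 (chrX:7067519-7078609), the scaffold of the fibrous sheath, had 1.72 and 0.019 FPKM in WT 1 and WT 2, 0.144 and 1.64 FPKM in KO 1 and KO 2, and was listed at 0 in WT 3 and KO 3. In all of these, WT 1 and KO 2 were high, KO 1 came next and the groups overlapped. Odf1 had the largest share outside the top libraries: 84.5% of its FPKM summed over the 6 libraries lay in WT 1 and KO 2, against up to 96.6%, for Tnp2, among the members.

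The glycolytic enzymes of the germ line did the same. Ldhc (chr7:46861203-46878142), the sperm lactate dehydrogenase, had 5.03 FPKM in WT 1 and 5.34 FPKM in KO 2, was listed at 0 in WT 2 and WT 3, and had 0.551 and 0.182 FPKM in KO 1 and KO 3. It was the only member with its highest value in KO 2 and not in WT 1. Gapdhs (chr7:30729775-30743681), the sperm glyceraldehyde phosphate dehydrogenase, had 3.66 FPKM in WT 1, 3.46 FPKM in KO 2 and 0.508 FPKM in KO 1, with 0.078 FPKM in WT 3, and was listed at 0 in WT 2 and KO 3. Pgk2 (chr17:40207015-40208640), the phosphoglycerate kinase of sperm and a gene of 1 exon, had 1.96 FPKM in WT 1, 1.77 in KO 2, 0.221 in KO 1 and 0.065 in KO 3, and was listed at 0 in WT 2 and WT 3. Each of these genes thus had the same pair of high libraries as the protamines.

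These enzymes have somatic counterparts whose reads could in part be assigned to them, so their low values are uncertain. The counterparts did not share the pattern. Ldha, beside Ldhc on chromosome 7, had 471, 346 and 700 FPKM in turn in the WT libraries and between 357 and 397 FPKM in the libraries labelled KO. Gapdh was likewise highest in WT 3, at 531 FPKM, where Gapdhs had 0.078 FPKM. Pgk1 stood between 29.8 and 48.7 FPKM, and Ldhb between 36.5 and 95.6 FPKM. All of these counterparts were highest in WT 3. The assignment of reads between the paired genes was not tested.

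Most members stood in similar proportion to Prm1 in both high libraries, and Tnp2 did not. The level of Prm2 relative to Prm1 was 0.972 in WT 1 and 0.932 in KO 2, and that of Tnp1 was 0.580 and 0.591. Pgk2 was at 0.0502 and 0.0531 of Prm1, and Smcp at 0.241 and 0.243. Tnp2 was at 0.632 of Prm1 in WT 1 and 0.392 in KO 2, and Ldhc at 0.128 and 0.160. In KO 1, where the values are lower, the same ratios were 1.46 for Prm2, 0.802 for Tnp1, 0.065 for Pgk2 and 0.549 for Smcp. As a share of the level in WT 1, the members stood between 4.65% and 21.6% in KO 1 (median 11.7%) and between 0% and 9.29% in KO 3 (median 2.54%). In WT 2 the highest was 1.89% and in WT 3 2.13%.

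WT 1 and KO 2 were the top libraries in 10 of 10 members, and KO 1 came after them in 10 of 10. KO 3 was the next in 7 of 10, the exceptions being Akap4, Smcp and Gapdhs, whose values in KO 3 were at most 0.085 FPKM. All 10 members had a value of at least 1 FPKM in WT 1 and in KO 2, against 5 in KO 1, 2 in KO 3 and 0 in WT 2 and WT 3. Any value above 0 was listed for 10 members in KO 1, 8 in KO 3, 6 in WT 2 and 4 in WT 3.

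The design sets the libraries labelled KO against WT. Zfp251 RNA was not lower in the KO libraries and the labels give no allele, so whether ZFP251 is lost was not tested. The comparison is thus one of labels, and no member passed it. All genes averaging 1 FPKM or more entered a limma fit of log2(FPKM + 1), judged at a Benjamini-Hochberg adjusted p under 0.05. Akap4 and Pgk2 were below that mean, which left 8 members among 12539 tested genes. Of these, 0 passed, and the background was 0% of all tested genes. At an unadjusted p under 0.05 the members had 0 genes with higher and 0 with lower values, against 9.13% and 4.43% of all tested genes (13.6% together). The groups did not overlap in 0 of 10 members, against 22.2% of all tested genes.

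On this log2(FPKM + 1) scale, where low genes change less than their FPKM do, Prm1 had a difference of 0.82 with a standard error of 1.56 (limma adjusted p = 0.828), and Prm2 one of 1.04 with a standard error of 1.53 (limma adjusted p = 0.775). Tnp1 had 0.56, Smcp 0.42, Odf1 0.34, Ldhc 0.32, Tnp2 0.15 and Gapdhs 0.14, with adjusted p between 0.845 and 0.967. The median of the 8 tested members was 0.38, against -0.05 for all tested genes. All 10 members had a higher mean log2 value in the libraries labelled KO (40.8% of all tested genes did), but only 6 of 10 had a higher mean FPKM. The ratio of mean FPKM, KO over WT, ran from 0.581 for Tnp2 to 1.21 for Ldhc, and for Prm1 it was 0.957. The exact permutation p of the members ran from 0.5 to 1.0.

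The direction of these differences, except that of Prm2, changed with single libraries. Without WT 1 the log2 difference of Prm1 was 2.49, and without KO 2 it was -0.32 (limma adjusted p = 0.355 and 0.967). For Tnp2 the values were 1.71 and -0.90. Without WT 2 or WT 3 they also moved down, for Prm1 to 0.02 and -0.05. With a library left out, no tested member passed the adjusted threshold.

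**Figure D2:**
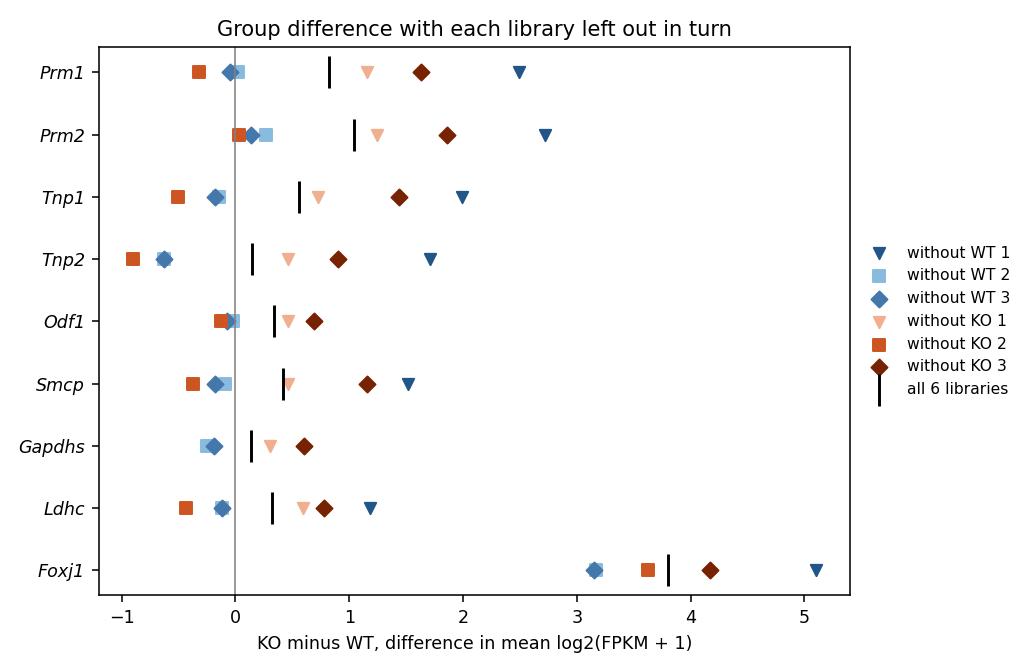
The horizontal axis gives the KO minus WT difference in mean log2(FPKM + 1) with all 6 libraries (black bar) and without each library in turn (symbols), for genes still averaging 1 FPKM or more; Akap4 and Pgk2 have no such value. Apart from Prm2, which stays at or above 0.03, the germ cell genes lie on both sides of 0, Prm1 from -0.32 to 2.49, while Foxj1 stays between 3.15 and 5.10.

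Foxj1 (chr11:116330704-116335399) went with other libraries. WT 1 had 13.9 FPKM, WT 2 had 0.034 FPKM and WT 3 was listed at 0, against 44.2, 43.2 and 20.0 FPKM in turn in the KO libraries. All libraries labelled KO were above all WT libraries. The log2 difference, 3.80 (standard error 1.03), missed the threshold (limma adjusted p = 0.223). By exact permutation p was 0.1, the minimum for 3 against 3. Without WT 1 the difference was 5.10 and passed (limma adjusted p = 0.00576), whereas over the other fits with a library left out the adjusted p was up to 0.741.

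KO 1 and KO 2 set the germ cell and ciliated genes apart most plainly. They had nearly the same Foxj1, 44.2 and 43.2 FPKM, but Prm1 was 9.79 times higher in KO 2 than in KO 1, and the members ran from 3.65 times, for Odf1, to 11.4 times, for Tnp2 and Akap4. WT 1 and KO 3 were the reverse case. Foxj1 was 13.9 FPKM in WT 1 and 20.0 FPKM in KO 3, while Prm1 was 39.2 FPKM in WT 1 and 1.30 FPKM in KO 3. Relative to Foxj1, the level of Prm1 was 2.82 in WT 1, 0.0769 in KO 1, 0.770 in KO 2 and 0.0649 in KO 3. WT 2 and WT 3 were low in both.

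As log2((member + 0.1)/(Foxj1 + 0.1)), the KO minus WT difference ran from -5.56 for Akap4 to -3.74 for Prm2, with a median of -4.56. Foxj1 itself was near 0 in WT 2 and WT 3 and high in all KO libraries, so these differences largely restate that of Foxj1 and are given with no test. For Prm1 the log2 ratio was 1.49, 1.62 and 1.56 in turn in the WT libraries and -3.66, -0.38 and -3.85 in turn in the KO libraries. In WT 3, where 6 members and Foxj1 were listed at 0, the ratio of those members is set wholly by the added constant, and other ratios in WT 2 and WT 3 are set by it in part. With constants of 0.01 and 1, chosen after the data were seen, the median difference was -5.19 and -3.48.

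**Figure D3:**
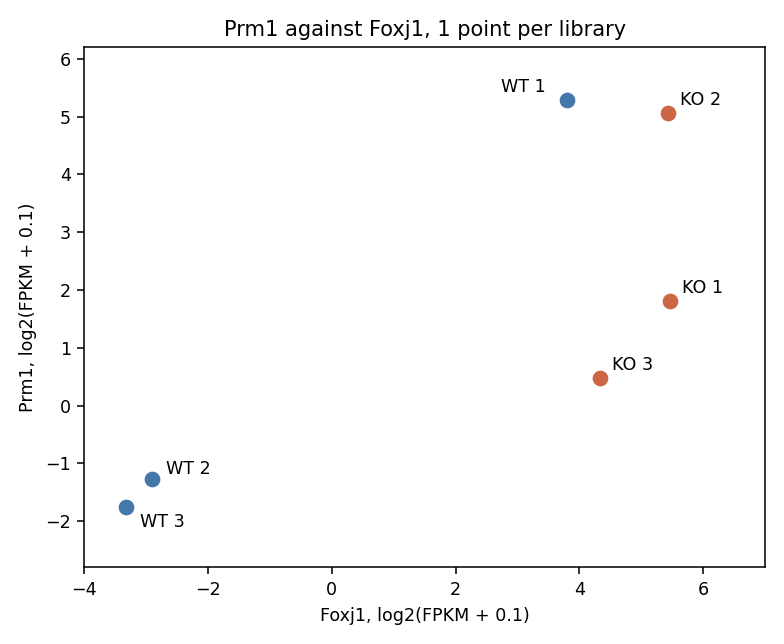
Each point is 1 library, placed by log2(FPKM + 0.1) of Foxj1 (horizontal) and of Prm1 (vertical), with WT in blue and the libraries labelled KO in orange. WT 2 and WT 3 are low in both genes, and KO 1 (Foxj1 44.2 FPKM, Prm1 3.40 FPKM) lies far below KO 2 (43.2 and 33.3 FPKM) at nearly the same Foxj1.

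To find genes with a profile like that of the members, the share of each gene's summed FPKM in each library was compared with the members' mean shares. That mean profile had 49.9% in WT 1, 42.2% in KO 2, 6.07% in KO 1, 1.31% in KO 3, 0.342% in WT 2 and 0.175% in WT 3. The corresponding shares of Foxj1 were 11.4%, 35.6%, 36.4%, 16.5%, 0.028% and 0%. Distance is the sum of absolute differences in share divided by 2, from 0 for the same profile to 1 for no library in common. The members lay between 0.01 (Tnp1) and 0.133 (Tnp2) from their mean and between 0.383 and 0.518 from Foxj1.

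The 8 nearest named genes, among 13348 other genes that reached 1 FPKM in some library, were Cabs1, Spz1, Oaz3, Tmco2, Actrt2, Prm3, Znrf4 and Hspb9, at distances of 0.022 to 0.046 from the members over the 6 libraries. Apart from Oaz3, they reached 1 FPKM only in WT 1 and KO 2. They thus entered through the libraries that lead the profile, so the likeness and the counts by distance are a description and not a test. Oaz3, the antizyme of spermatids, was the most abundant, with 8.90, 0.369 and 0.170 FPKM in turn in the WT libraries and 1.18, 7.87 and 0.393 FPKM in the KO ones. Hspb9, a small heat shock protein of the testis, had 3.54 FPKM in WT 1 and 2.89 FPKM in KO 2, and Spz1, a transcription factor of the testis, had 2.41 and 2.23 FPKM there. Prm3, the protamine-like gene between Prm2 and Tnp2, had 2.26 FPKM in WT 1, 1.73 in KO 2 and 0.199 in KO 1, and was listed at 0 in WT 2, WT 3 and KO 3. Within a distance of 0.15 lay 54 of these genes, against 674 within the same distance of Foxj1. No gene could lie that near to both, since Foxj1 itself was 0.455 from the members' mean profile.

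**Figure D4:**
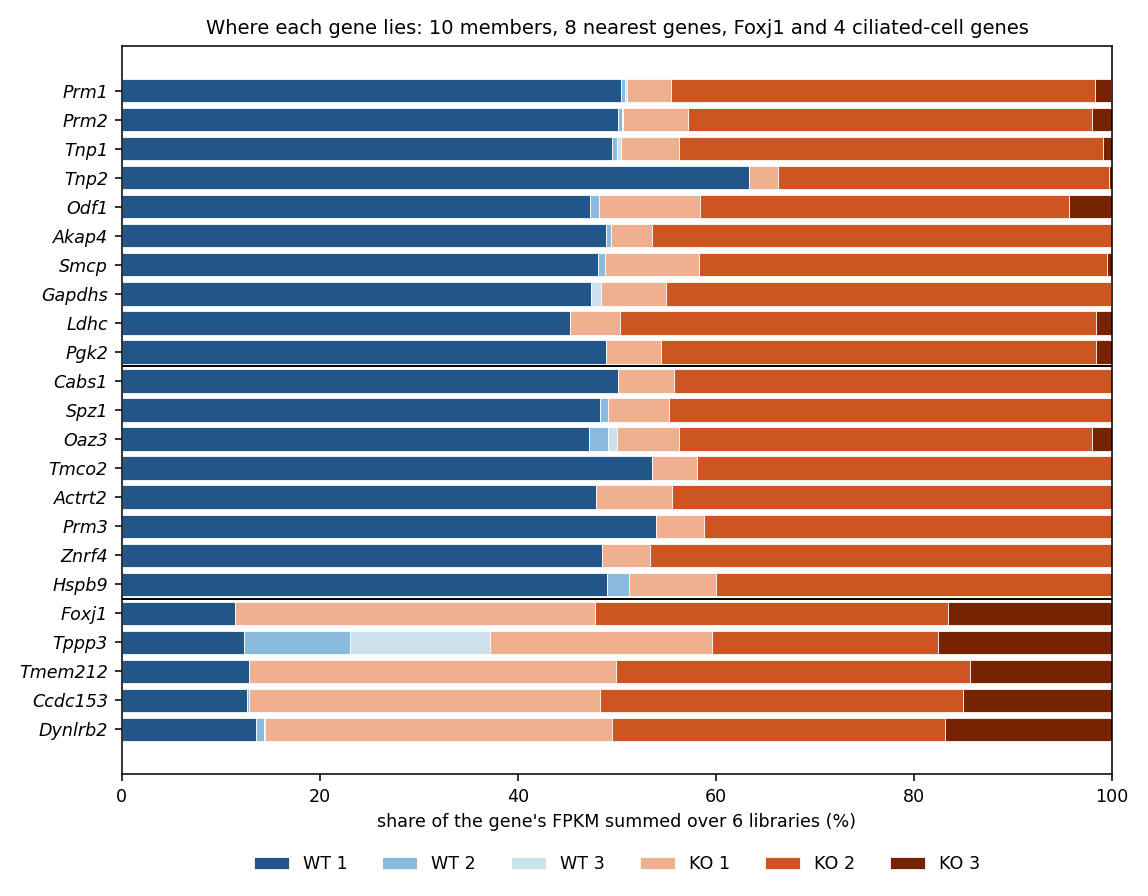
Each bar divides a gene's FPKM, summed over the 6 libraries, into the percentage in each library (horizontal axis), for the 10 members, the 8 nearest genes and, below the lower line, Foxj1 with the 4 most abundant other genes of the ciliated list. WT 1 and KO 2 hold 84.5% to 96.6% of each member, and 47.1% of Foxj1, which lies mostly in the libraries labelled KO.

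Apart from Prm3, the neighbouring genes described here did not share the pattern. Socs1, a cytokine signalling inhibitor that lies 2400 bases from Tnp2 on the side away from the protamines, had 1.17, 0.617 and 1.07 FPKM in turn in the WT libraries and between 0.376 and 0.575 FPKM in the libraries labelled KO. Ldha lies 5576 bases from Ldhc, and Tmem147 lies 235 bases from Gapdhs with 49.3 to 106 FPKM, highest in WT 3. Igfbp5 and Tns1, the nearest measured genes to Tnp1, stood at 45.7 to 77.5 and 162 to 257 FPKM, and Klf10 beside Odf1 at 16.9 to 27.7 FPKM. Clcn5, beside Akap4, stood at 3.05 to 4.66 FPKM, Tsg101, beside Ldhc, at 24.0 to 36.1 FPKM and Sbsn, beside Gapdhs, at 18.3 to 50.2 FPKM. Several neighbours were at or near 0 in all 6 libraries: Gm11172 beside Prm1, Ccnb3 beside Akap4, 2210017I01Rik and Ivl beside Smcp, and AC192777.2 and Crisp3 beside Pgk2.

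Other late germ cell genes were taken from 4 lists: spermatid chromatin, acrosome and sperm surface, sperm tail, and metabolic enzymes of the germ line. Of 56 genes in the table, 44 reached 0.3 FPKM in some library, a level chosen after the values were seen. WT 1 and KO 2 were the highest libraries in 29 of these 44 (65.9%), against 4.8% of 15098 genes outside the members at that level. Some of the 29, such as Prm3, Ropn1 and Gk2, reached 0.3 FPKM only in WT 1 and KO 2. They entered through the libraries being counted, so the share is a description and not a test. By list the counts were 7 of 8 for chromatin, 7 of 12 for acrosome and surface, 8 of 13 for tail and 7 of 11 for enzymes. In the comparison of the libraries labelled KO with WT, 12 genes of these lists were tested and 0 passed the adjusted threshold, while 2 had an unadjusted p under 0.05 with higher values and 0 with lower ones, against 9.13% and 4.43% of all tested genes.

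Among the most abundant genes of these lists, several did not have the members' profile. Hils1, a linker histone of spermatids, did, with 1.46 FPKM in WT 1 and 1.98 FPKM in KO 2 and at most 0.086 FPKM in the other libraries. Brdt, a testis bromodomain protein, ranged from 0.715 to 1.44 FPKM. Acrbp and Spaca1, of the acrosome, ranged from 4.74 to 7.09 and from 1.30 to 3.40 FPKM with no peak in WT 1 and KO 2. Acr, the acrosomal protease acrosin, reached 2.13 and 1.90 FPKM in WT 1 and KO 2 over 0.887 to 1.43 FPKM in the rest. Ropn1l, of the sperm tail, ranged from 4.49 to 7.15 FPKM, the glucose transporter Slc2a8 from 16.1 to 20.4 FPKM and Cox6b2, a testis form of a cytochrome oxidase subunit, from 3.61 to 8.19 FPKM.

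Some genes of these lists followed Foxj1. Spata18 had 2.96, 0.037 and a listed 0 FPKM in turn in the WT libraries and 6.49, 7.85 and 2.99 FPKM in the KO ones, at a distance of 0.063 from Foxj1 and 0.393 from the members. Eno4, an enolase needed for sperm movement, lay at 0.05 from Foxj1 and 0.492 from the members. Tcp11 lay between them, at 0.221 from the members and 0.246 from Foxj1, with 3.84 FPKM in WT 1, 2.44 in KO 1, 5.03 in KO 2 and 1.15 in KO 3. Spata18 and Eno4 were the 2 genes with an unadjusted p under 0.05 (log2 differences of 2.00 and 1.62, limma adjusted p = 0.223 for both).

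Regulators of the spermatid programme were divided. Of 10 that reached 0.3 FPKM, 5 had WT 1 and KO 2 as their highest libraries, against 4.8% of genes outside the members. Some of the 5, such as Spem1, reached that level only there. The most abundant regulators did not have this pair on top. Adjusted p-values passed for 0 of 6 tested. Before adjustment, p was under 0.05 for 1 gene with higher values in the KO libraries, Rfx2 (log2 difference 0.69), and for 1 with lower values, against 9.13% and 4.43% of all tested genes. The latter was Crem itself, which had 13.2, 19.0 and 17.47 FPKM in turn in the WT libraries and 9.61, 9.81 and 11.5 FPKM in the KO ones, and its log2 difference was -0.62 (limma adjusted p = 0.223). A gene-level value does not tell the isoforms of Crem apart. Tbpl1, a TBP-like factor, stood at 6.26 to 7.53 FPKM, and Tnrc6c at 6.31 to 9.01 FPKM. Ybx2, an RNA-binding protein of germ cells, had 8.52 FPKM in WT 1 and 7.46 FPKM in KO 2 over 4.85 to 5.52 FPKM in the rest. Spem1, a gene of late spermatids, had 2.39 FPKM in WT 1 and 1.52 FPKM in KO 2 and at most 0.159 FPKM elsewhere.

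Markers of earlier germ cells had WT 1 and KO 2 on top in a few cases. Of 17 meiotic genes, 10 reached 0.3 FPKM. Of these, 2 had WT 1 and KO 2 as their highest libraries, against 4.8% of genes outside the members. Mael had 2.08 and 1.42 FPKM there and at most 0.125 FPKM elsewhere. Syce1 had 0.511 and 0.394 FPKM there and up to 0.317 FPKM elsewhere. Mael reached 0.3 FPKM only in WT 1 and KO 2, and so entered the count through libraries that it scores. The synaptonemal complex gene Sycp3 had 5.72 FPKM in WT 1 but 2.29 FPKM in KO 2 and 5.69 FPKM in WT 3. Hspa2 ranged from 4.52 to 10.9 FPKM with the highest values in KO 1 and KO 2, and Prdm9 from 2.43 to 3.82 FPKM. Of 4 tested meiotic genes 0 passed the adjusted threshold. Sycp1, which defines meiotic chromosomes, was at most 0.031 FPKM in any library, and Stra8 was listed at 0 in all 6. Sycp1 was above 0 only in WT 1 and KO 2. Tex101, also below 0.3 FPKM, was highest in WT 1 and KO 2, at 0.287 and 0.091 FPKM. Piwil1 was highest there too, at 0.212 and 0.112 FPKM, while Spo11, at most 0.174 FPKM, was highest in KO 1. Of 12 genes of spermatogonia and general germ cells, the most abundant was Zbtb16, at 14.2 to 37.7 FPKM, which fat tissue also expresses. Of 6 genes of that list at 0.3 FPKM, 2 had WT 1 and KO 2 as their highest libraries, against 4.8% of genes outside the members. These were Ddx4, a helicase of germ cells, with 0.281 and 0.444 FPKM there and at most 0.125 FPKM elsewhere, and Nanos2, with 0.079 and 0.311 FPKM and at most 0.050 FPKM elsewhere. Ddx4 and Nanos2 reached 0.3 FPKM only in KO 2, and so entered the count through a library that it scores. Dnd1 and Nanos3 stayed at or below 0.947 and 0.553 FPKM, and Sall4 was listed at 0 in all 6 libraries.

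Markers of the other cells of the testis and its ducts were examined in the same way. Among 12 Sertoli cell genes, Rhox5 was listed at 0 in all 6 libraries and Amh was at most 0.258 FPKM, while Sox9 and Defb36 were highest in KO 1 and KO 2, at up to 10.3 and 7.19 FPKM, and Dhh was highest in WT 2, at 2.74 FPKM. Of 6 Sertoli genes at 0.3 FPKM, 1 had WT 1 and KO 2 as its highest libraries, Cst9, with 0.468 and 0.266 FPKM there and listed at 0 elsewhere. Cst12, below that level, had 0.237 and 0.287 FPKM there and was also listed at 0 elsewhere. The same count was 1 of 3 for Leydig, 2 of 5 for principal cell and 0 of 1 for accessory gland genes. Of genes outside the members at 0.3 FPKM, 4.8% had these highest libraries. Cst9, and Cst8 of the principal cell list, reached 0.3 FPKM only in libraries that the count scores. Of the Leydig cell enzymes, Cyp17a1 was at most 0.251 FPKM and Hsd3b1 at most 0.095 FPKM, with Star at 0.877 to 1.75 FPKM and Lhcgr at most 0.254 FPKM. Of 15 genes of epididymal principal cells, 4 were listed at 0 in all 6 libraries, among them Lcn5, and Gpx5 was at most 0.064 FPKM. The most abundant of that list was Spink2, with 2.23 and 1.59 FPKM in WT 1 and KO 2 and 0.529 to 1.13 FPKM in the rest, and Rnase10 was at most 0.812 FPKM. Of 9 measured accessory gland genes 7 were listed at 0 in all libraries, and Svs5 and Spink1 were at most 0.376 and 0.176 FPKM. Summed over its list, the Leydig level was highest in WT 1 and KO 2, at 9.24 and 9.09 FPKM against 2.04 to 5.16 FPKM in the rest, and most of it was Insl3, a Leydig hormone, at 7.56 and 7.24 FPKM. Insl3 overlaps Jak3 on the same strand in the annotation, so its value is uncertain. The principal cell sum was also highest in WT 1 and KO 2, at 3.94 and 3.10 FPKM against 0.983 to 1.99 FPKM, mostly from Spink2 and Cst8. Cst8 is also a gene of germ cells, and the cell source of Spink2 was not tested. That sum is therefore not a measure of principal cells alone. The accessory gland sum was 0.385 and 0.481 FPKM in WT 1 and KO 2 against 0 to 0.376 FPKM. The Sertoli sum was 9.53 FPKM in WT 1 and 19.7 FPKM in KO 2, with 3.32 to 18.0 FPKM in the rest. The part of these cell types in the members' values was not tested. At an adjusted p under 0.05, 0 genes of these lists passed. Unadjusted limma p was under 0.05 for 2 of 3 tested Sertoli genes, Sox9 and Defb36, with higher values in the KO libraries. The share of all tested genes was 9.13%. Both lay nearer to Foxj1, at 0.172 and 0.086, than to the members, at 0.519 and 0.393. Of the tested Leydig and principal cell genes, 2 and 1 in number, 0 had such a p.

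Ciliated and tubule epithelial genes had the libraries of Foxj1, not those of the members. All 20 tested genes of the multiciliated list had an unadjusted p under 0.05 with higher values in the libraries labelled KO, and so did all 11 tested genes of the tubule epithelium list, where 9.13% of all tested genes did. None passed the adjusted threshold. Tmem212 had 18.6 FPKM in WT 1, against 53.5, 51.8 and 20.7 FPKM in turn in the KO libraries. Ccdc153 had 17.8 FPKM in WT 1, against 49.7, 51.3 and 21.1 FPKM, and Tppp3 had 35.1 to 74.9 FPKM across all libraries. Of the epithelial genes, Krt8 had 20.4 FPKM in WT 1, at most 1.63 FPKM in WT 2 and WT 3, and 48.0, 51.3 and 23.2 FPKM in turn in the KO libraries. Krt19 was likewise lowest in WT 2 and WT 3, at 11.1 and 5.71 FPKM, and highest in KO 1 and KO 2, at 34.7 and 31.7 FPKM. WT 1 and KO 2 were the highest libraries in 0 of 22 multiciliated and 0 of 12 tubule genes at 0.3 FPKM. Among genes outside the members the share was 4.8%, so a count of 0 in lists of this size is near it. Summed over the multiciliated list, the level was 142, 37.2 and 48.2 FPKM in turn in the WT libraries. In the KO ones it was 351, 354 and 181 FPKM. The members' sum relative to it was 1.06 in WT 1, 0.341 in KO 2 and at most 0.0468 elsewhere. Most of the multiciliated sum in WT 2 and WT 3 was Tppp3, at 35.1 and 46.3 FPKM, so the low ratio there rests on that gene.

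The fat cell list had no peak in WT 1 and KO 2 either. Cfd, Car3 and Fabp4, the most abundant adipocyte genes, were all highest in WT 3, at 33638, 20703 and 23451 FPKM. In WT 1 and KO 2 Cfd had 15267 and 11107 FPKM, within the range of the other libraries.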

How the data were processed

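Polyadenylated RNA from epididymal white adipose tissue was sequenced from a stranded mRNA kit, per the labels' protocols. The tools named in the submitters' processing notes are Cuffdiff 2.2.1, Cufflinks and STAR 2.5.4, on mm10. For annotation, filters and library scaling, details were not given in the sources used here. The deposited values, 1 column per library, were read as FPKM; no header names the unit, which was inferred from those tools and the values. Of 21853 rows, each symbol kept its most abundant entry. FPKM hold no counts, so no count test was run. The commonest step between low values held only 5.45% to 14.6% of genes, so depth is unknown and no counting intervals are given.

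The test was limma 3.58.1 in R 4.3.3 on log2(FPKM + 1), for genes averaging 1 FPKM or more, comparing the groups with no covariate and a trended prior variance. It was also run on simulated data with noise drawn independently for each gene, so shifts shared by many genes of a library were not tested there. Positions and exons came from GENCODE vM21 (GRCm38, the assembly of mm10), promoters from RefSeq. Members, gene lists and the naming rule were chosen with earlier results of these data known: all members and Foxj1, the 3 most abundant genes of each list, the 8 nearest profiles and the nearest measured neighbours, of which some are not reported here. Other named genes were chosen after their values were seen. Alternatives were other pseudocounts, filters, scalings, a replicate block and each library left out.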

Additional observations from a re-analysis of the deposited data

How the results depend on the processing

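No member passed limma's adjusted threshold in any alternative run, and 0 of the 8 tested had an unadjusted p under 0.05 with all 6 libraries. Without WT 1, the unadjusted limma p was under 0.05 for 1 of 6 tested members, against 1858 of 12537 genes. Over all genes 0 passed with the 6 libraries (1700 at an unadjusted p under 0.05), 1 passed with no filter on low values (Exo1, adjusted p = 0.00247), and between 0 and 482 passed with a library left out, 482 being without WT 1. With a library left out the log2 differences ran from -0.32 to 2.49 for Prm1, from 0.03 to 2.72 for Prm2, from -0.50 to 1.99 for Tnp1, from -0.90 to 1.71 for Tnp2, from -0.13 to 0.69 for Odf1, from -0.37 to 1.52 for Smcp, from -0.25 to 0.60 for Gapdhs and from -0.43 to 1.18 for Ldhc. Odf1 had no value without WT 1, and Gapdhs none without WT 1 or KO 2, where they were below the filter, so their ranges rest on 5 and 4 fits and leave out the fit that gave the other members their highest values. The cause of the changes of sign was not tested. With other pseudocounts, filters and scalings these differences stayed positive, and with a pseudocount of 0.1 they reached 2.15, for Prm2. Akap4 and Pgk2 were below the filter and had p-values only with no filter (adjusted p = 1.0 for both). With the replicate number as a block, the Prm1 difference was 0.82 and 0 genes passed. Deviations from the group means of same-numbered libraries correlated across genes at 0.228, -0.2 and 0.22, and since 1 of these was negative the numbers were not taken as pairs; WT 1 correlated best with KO 2 (0.426). Depth is unknown, so values under about 0.1 FPKM were read only as low.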

Other observations

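Single genes of the other lists had WT 1 and KO 2 as their highest libraries, and were chosen after their values were seen. Cst8, a cystatin of the epididymis and of germ cells, had 1.45 FPKM in WT 1 and 0.770 FPKM in KO 2 and was listed at 0 in the other 4 libraries. Mael, of the piRNA pathway of germ cells, had 2.08 FPKM in WT 1, 1.42 in KO 2 and 0.125 in KO 1, and was listed at 0 in WT 2 and WT 3.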
